A study of Mus musculus with 4 samples.

Results

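The genes described here are 10 genes of the NRF2 pathway and of glutathione and thioredoxin chemistry, namely Nfe2l2, Keap1, Nqo1, Hmox1, Gclc, Gclm, Gsr, Txnrd1, Srxn1 and Gpx4. They were picked by symbol, with earlier results of these data known, and cover 21 of the 40739 transcript rows and 10 of the 25177 gene symbols of the authors' deposited table. The RNA came from nuclei of NIH-3T3, a long-established mouse fibroblast line of embryonic origin. All cells of both groups stably carried H2B-mCherry, the rtTA3G transactivator and a CDX2 transgene under the doxycycline-inducible TRE3G promoter. CDX2 is a homeobox transcription factor of intestinal epithelium, trophectoderm and the posterior embryo. The group labelled Dox (2 libraries) had doxycycline at 500 ng/ml for 6 h, and the group labelled noDox (2 libraries) had solvent alone for the same time. The labels do not say whether the line is a single clone or whether replicates were separate cultures, so the spread between these samples may be technical. The p-values rest on that spread pooled over transcripts, and not on the spread of each gene. No cells without the transgene were analysed here, so CDX2 induction and doxycycline itself cannot be told apart. No values per library were analysed here either, so each gene has 1 fold change and 1 mean level.

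NRF2, the product of Nfe2l2, is a basic leucine zipper factor that pairs with small MAF proteins and binds antioxidant response elements. In unstressed cells KEAP1 holds NRF2 and, as the adaptor of a CUL3 ubiquitin ligase, has it degraded, so the factor is controlled largely at the level of the protein. Oxidants and electrophiles modify KEAP1, NRF2 accumulates, and genes for glutathione synthesis, quinone reduction, thioredoxin reduction and haem breakdown are transcribed. Fibroblasts in culture use these same systems to handle peroxides formed by respiration and growth factor signalling.

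Promoter sequence was matched for 7 of the 10 genes (12 windows, from RefSeq, GRCm38.p6, each from 250 bases before a gene start to 50 after it). Hmox1, Gclc and Gsr were not matched. The core letters of the antioxidant response element, TGACNNNGC on either strand, occurred in 4 of the 12 windows, those of Gclm, Nfe2l2, Srxn1 and Txnrd1, and in 12.4% of all 32851 windows. The AP-1 letters TGANTCA occurred in 1 window, that of Srxn1, and in 7.81% of all windows. The CDX core letters TTTATNG occurred in 0 of the 12 windows and in 10.9% of all windows. The first motif also holds the second where its free bases read TCA, but no match here overlapped a match of another motif as searched. The first motif was not searched with G in place of its first C. The Srxn1 promoter printed below holds such letters, TGAGTCAGC, at its AP-1 match 45 bases before the start. The 4 element matches are printed because they let genes that rose (Srxn1, Txnrd1) be set beside genes that did not pass the test (Gclm, Nfe2l2). Each is shown 5′ to 3′ on the strand that carries the motif, with the match in capitals and 10 bases on each side.
Srxn1: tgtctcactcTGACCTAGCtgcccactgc
Txnrd1: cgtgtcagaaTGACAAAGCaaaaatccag
Gclm: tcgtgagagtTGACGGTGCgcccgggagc
Nfe2l2: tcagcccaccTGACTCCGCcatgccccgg
The Srxn1 stretch lies at chr2:152105542-152105570 (minus strand), with the match beginning at base 29 of the transcribed part. The Txnrd1 stretch lies at chr10:82859104-82859132 (minus strand), the Gclm stretch at chr3:122245413-122245441 (minus strand) and the Nfe2l2 stretch at chr2:75704885-75704913 (minus strand). The matches begin 92, 134 and 240 bases before the start of the gene, respectively. Of the 7 genes, Srxn1 alone held the AP-1 letters, 102 and 45 bases before its start. The 250 bases before that start (chr2:152105274-152105523, plus strand) are printed for this reason, with both AP-1 matches in capitals.
Srxn1: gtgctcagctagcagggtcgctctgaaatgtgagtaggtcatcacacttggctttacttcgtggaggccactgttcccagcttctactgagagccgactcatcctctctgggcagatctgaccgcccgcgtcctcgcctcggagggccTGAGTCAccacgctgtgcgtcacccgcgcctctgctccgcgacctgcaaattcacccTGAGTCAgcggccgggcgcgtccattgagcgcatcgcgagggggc
G and C make up 63.2% of these bases. A match of letters is a description of the sequence and does not show that a factor was bound there. Nor does a missing match show that a gene lacks an element, since sequence outside these windows was not searched.

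With doxycycline, 4 of the 10 genes rose (Hmox1, Srxn1, Gpx4 and Txnrd1), 0 fell and 6 did not pass the test of the authors' deposited table (limma, adjusted p under 0.05). The 4 rises were between 12.1% and 38.4%, so 0 of the 10 genes changed by 2-fold. The background in the authors' deposited table was 24.7% of 12355 tested genes called, with 11.3% higher and 13.4% lower. Rises made up 45.7% of these calls, 46.4% with p adjusted over the tested genes, and 59.8% when, beside that adjustment, ribosomal protein genes were centred on 0. Of all 24580 transcript rows above the same floor, 25.2% were called there, beside 7 of the 21 rows of these genes. The median log2 fold change was 0.099 over the 10 genes and -0.0011 over all tested genes in the authors' deposited table. All 10 genes passed the floor of a mean of 10 counts per library, their geometric means running from 694 to 10434 reads. The standard error of the log2 fold change lay between 0.061 and 0.083. In the authors' deposited table the spread was pooled over transcripts, so these errors say little of how the replicates of a single gene varied. When every standard error was multiplied by 2.08, which is the robust SD of t among tested genes, 0 of the 10 genes were called, and 4.66% of all tested genes were. Real changes enter this factor too, which makes the widened test stricter over the genes as a whole. The same factor was used for every gene. A gene whose replicates vary more than the pooled spread could thus still be called too easily. In bulk RNA, a change in the share of cells that transcribe a gene and a change in RNA per cell cannot be told apart.

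**Figure D1:**
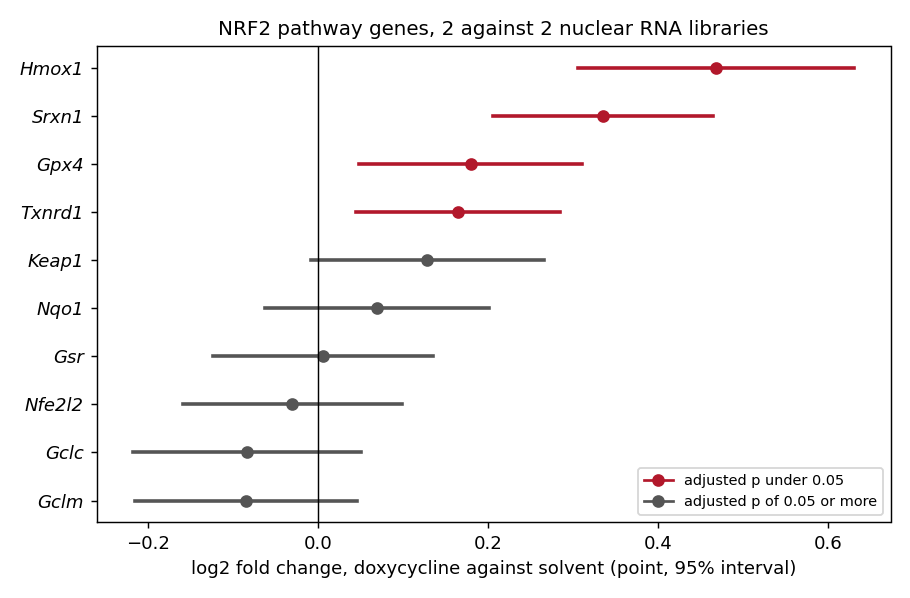
Log2 fold change of each gene, doxycycline against solvent, on the horizontal axis, with the 95% interval as a bar (2 against 2 libraries, authors' deposited table). Red marks an adjusted p under 0.05. Hmox1 (0.47) and Srxn1 (0.34) lie farthest above 0, and Gclm (-0.085) lies lowest.

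The induction itself was seen in the target gene, since Cdx2 in the authors' deposited table was 124-fold above its level with solvent. Cdx2 stood at 4.96 CPM without and 612 CPM with doxycycline, so the control was not free of its reads. Reads of the transgene and of the cells' own Cdx2 were not told apart. Of the fibroblast markers, 10 of 10 passed the count floor, with mean levels from 5.64 to 2086 CPM. By the authors' deposited table, a total of 6 of them fell (Col1a1, Col1a2, Col3a1, Fn1, Vim and Pdgfrb) and 1 rose (Pdgfra, 0.92), and the part of these changes in the results below was not tested. Of 4 macrophage, 3 endothelial, 4 epithelial and 4 intestinal markers, 1 each passed (Cd68, Cdh5, Cdh1 and Vil1), and the summed levels of these lists were 1.06, 4.11, 0.858 and 0.398 CPM. Of these 4 genes, Cdh1 fell (-1.62, adjusted p 2.14e-11) and the others were not called in the authors' deposited table. The intestinal marker Cdh17, under the count floor at 0.0288 CPM, had a log2 fold change of 2.59 there (limma, adjusted p 0.00287). Adgre1 and Krt18 had no reads in any library, and Epcam stood at 0.0144 CPM, a level next to that of rows without reads. The largest marker sum of another cell type was thus far below the 6798 CPM of the fibroblast list.

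The sensor and the transcription factor of the pathway did not pass the test. Nfe2l2 (NM_010902, mm10 chromosome 2, 75675513 to 75704663, minus strand) stood at 31.7 CPM per kilobase of exon without and 31.0 with doxycycline. In log2 terms the fold change was -0.030 ± 0.066 (± standard error), with a 95% interval of -10.4% to 7.07% and an adjusted p of 0.873 in the authors' deposited table. The interval leaves out changes of the size seen in Hmox1 or Srxn1. A second row of the authors' deposited table, NR_132727, a noncoding Nfe2l2 transcript with a mean log2 CPM of 1.99 against 6.29 for the first, gave 0.0042 (adjusted p 0.982) there. Keap1 (NM_016679, chromosome 9, 21229730 to 21239332, minus strand) stood at 8.53 CPM per kilobase without and 9.33 with doxycycline. The log2 fold change was 0.13 ± 0.070 (adjusted p 0.264), and the 4 rows gave 0.13 in each case, with adjusted p from 0.254 to 0.266, in the authors' deposited table. The difference between Nfe2l2 and Keap1 in log2 fold change was -0.16, with a 95% interval of -0.35 to 0.029, which includes 0.

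Hmox1 rose most of the 10 genes. It encodes haem oxygenase 1, which opens haem into biliverdin, carbon monoxide and iron, and is known as one of the most inducible NRF2 targets. Hmox1 (NM_010442, chromosome 8, 75093618 to 75100593, plus strand) stood at 8.24 CPM per kilobase without and 11.4 with doxycycline, a rise of 38.4% (95% interval 23.6% to 54.9%). The authors' deposited table gives Hmox1 a log2 fold change of 0.47 ± 0.083 (adjusted p 4.55e-07). By log2 fold change it was number 580 from the top among 12355 tested genes. Hmox1 had the fewest reads of the 10 genes, 694 per library as a geometric mean, and the widest error. With widened standard errors its adjusted p was 0.104.

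Srxn1 was the next to rise. It encodes sulfiredoxin, which restores peroxiredoxins that peroxide has over-oxidised. Srxn1 (NM_029688, chromosome 2, 152105524 to 152111376, plus strand) stood at 21.5 CPM per kilobase without and 27.1 with doxycycline, a rise of 26.2% (95% interval 15.3% to 38.1%). The rise in log2 terms was 0.34 ± 0.066 (limma, adjusted p 8.05e-06) by the authors' deposited table. Its promoter, printed above, is the one that held the AP-1 letters. With widened standard errors its adjusted p was 0.179. Hmox1 exceeded Srxn1 by 0.13 on the log2 scale, with a 95% interval of -0.075 to 0.34, so their order was within error.

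Txnrd1 and Gpx4, which encode selenoproteins, rose by smaller amounts close to the threshold. TXNRD1 is the cytosolic thioredoxin reductase. Txnrd1 (NM_001042513, chromosome 10, 82859206 to 82897724, plus strand) stood at 63.6 CPM per kilobase without and 71.3 with doxycycline, a rise of 12.1% (95% interval 3.18% to 21.9%). On the log2 scale of the authors' deposited table this was 0.17 ± 0.061 (adjusted p 0.0471). With widened standard errors the adjusted p of Txnrd1 was 0.797. GPX4 reduces lipid hydroperoxides in membranes with glutathione and is known as the main brake on ferroptosis, a death by lipid peroxidation. Gpx4 (NM_008162, chromosome 10, 80053565 to 80056439, plus strand) stood at 60.4 CPM per kilobase without and 68.4 with doxycycline, a rise of 13.3% (95% interval 3.40% to 24.1%). The log2 fold change in the authors' deposited table was 0.18 ± 0.067 (adjusted p 0.0491), and with widened standard errors the adjusted p was 0.803.

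Both calls depended on which transcript stood for the gene. The 4 rows of Txnrd1 gave log2 fold changes from 0.162 to 0.165, and 2 were called, with adjusted p from 0.0471 to 0.0548, in the authors' deposited table. The 4 rows of Gpx4 gave 0.179 to 0.189, and 3 were called, with adjusted p from 0.0440 to 0.0521, in the authors' deposited table. With the longest transcript in place of the one with the highest level, neither gene was called (adjusted p 0.0548 and 0.0521). Rows of a gene share exons and therefore reads, so they are not separate measurements. GENCODE M21 lists a processed pseudogene, Gpx4-ps2, with which Gpx4 reads could be shared. It also lists genes that overlap Gclm (Gm6061, Gm17494), Keap1 (Gm16754), Txnrd1 (Gm38560, Gm47073), Gsr (Gm24727) and Nfe2l2 (Gm24996). Their part in the values was not tested. Eid3, at 1.61 CPM, lies within the span of Txnrd1 on the same strand.

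**Figure D2:**
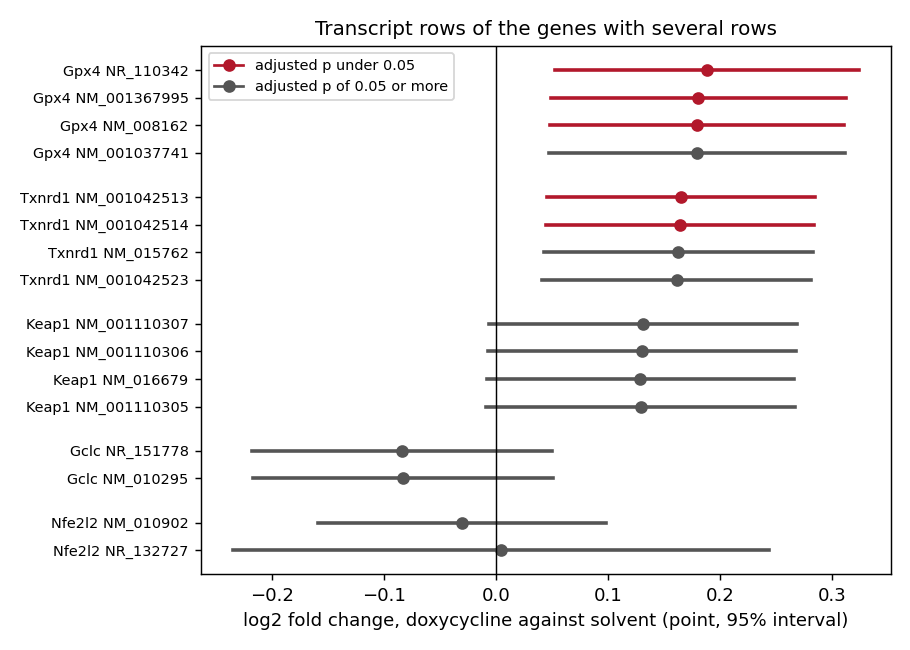
Log2 fold change with 95% interval for every transcript row of the 5 genes that have several rows (authors' deposited table, 2 against 2 libraries). Red marks an adjusted p under 0.05. The rows of Gpx4 (0.179 to 0.189) and of Txnrd1 (0.162 to 0.165) lie almost on top of each other while their calls differ.

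The genes of glutathione synthesis and recycling in this group did not pass the test. Gclc encodes the catalytic and Gclm the modifier subunit of glutamate-cysteine ligase, the rate-limiting enzyme of glutathione synthesis. Gclc (NR_151778, chromosome 9, 77754535 to 77794489, plus strand) stood at 12.9 CPM per kilobase without and 12.1 with doxycycline. Gclm (NM_008129, chromosome 3, 122245557 to 122267215, plus strand) stood at 30.7 CPM per kilobase without and 29.0 with doxycycline. The authors' deposited table gives log2 fold changes of -0.084 ± 0.068 for Gclc and -0.085 ± 0.067 for Gclm (adjusted p 0.578 and 0.548). The 2 values differed by 0.0013, with a 95% interval of -0.19 to 0.19. A rise of over 3.55% in Gclc or over 3.21% in Gclm lay outside the 95% intervals. These intervals rest on the spread pooled over transcripts, and with widened standard errors they would reach higher.

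Gsr encodes glutathione reductase, which returns oxidised glutathione to its reduced form with NADPH. Gsr (NM_010344, chromosome 8, 33653238 to 33698162, plus strand) stood at 27.3 CPM per kilobase without and 27.4 with doxycycline. Its log2 fold change of 0.0057 ± 0.066 (adjusted p 0.954) was the closest to 0 of the 10 genes in the authors' deposited table. Txnrd1 and Gsr encode parallel reductases of the thioredoxin and the glutathione branch. Txnrd1 exceeded Gsr by 0.16 on the log2 scale, with a 95% interval of -0.017 to 0.34 that includes 0. Nqo1 encodes a quinone reductase that is widely used as a readout of NRF2 activity. Nqo1 (NM_008706, chromosome 8, 107388225 to 107403205, minus strand) stood at 37.8 CPM per kilobase without and 39.7 with doxycycline. Its log2 fold change was 0.069 ± 0.067 (adjusted p 0.713), with a 95% interval of -4.24% to 14.9%, in the authors' deposited table. The intervals of the 4 pairs of genes set side by side here all include 0, which does not show that the genes of a pair moved alike.

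Levels per kilobase ranged widely over the 10 genes, each taken at its row with the highest count level. Per kilobase of exon, Txnrd1 (67.4 CPM, mean of both groups) and Gpx4 (64.3) were highest and did not differ from each other beyond their error. Nqo1 (38.7) came next, and then Nfe2l2 (31.4) and Gclm (29.8), which did not differ beyond error. Gsr (27.3), Srxn1 (24.1), Gclc (12.5), Hmox1 (9.69) and Keap1 (8.92) followed, each of these rows below the one before it by more than the error of the 2 means. The order depends on the row where a gene has several. The other 3 rows of Keap1 stood at 11.2 or more, above Hmox1, and the 4 rows of Gpx4 ran from 46.0 to 70.1. The error of a mean was taken as the standard error of the fold change divided by 2, for a balanced design. It rests on the spread pooled over transcripts. With widened standard errors the smaller steps, such as those from Gclm to Gsr and from Hmox1 to Keap1, would lie within error. Srxn1 without doxycycline (21.5) lay below Gsr (27.3), and with doxycycline (27.1) it stood next to Gsr (27.4). These levels count exon reads of nuclear RNA, which holds newly made transcripts as well as finished mRNA.

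**Figure D3:**
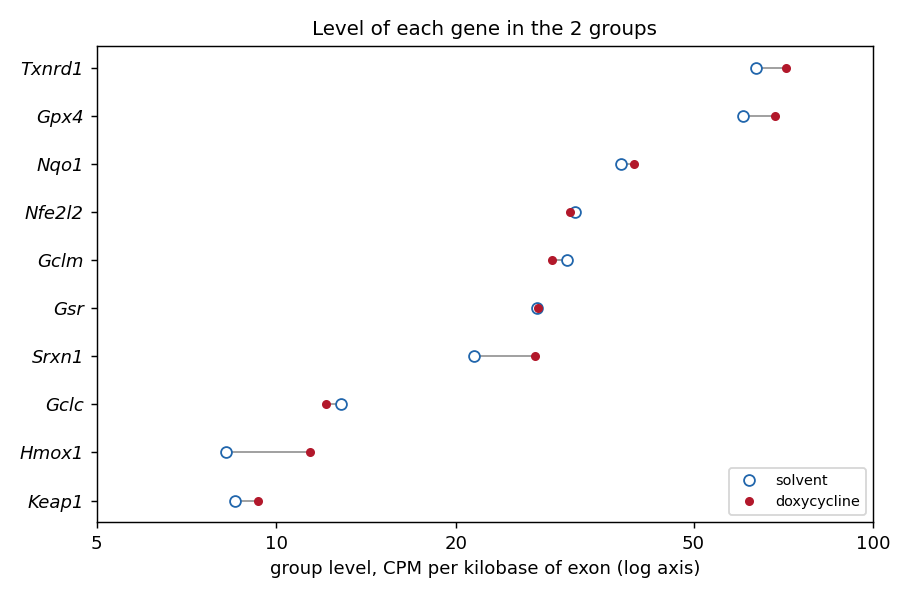
Level of each gene in CPM per kilobase of exon (log axis) with solvent (open circles) and with doxycycline (filled circles), worked out from the mean level and fold change of the authors' deposited table. The gap between the circles is widest for Hmox1 (8.24 and 11.4) and Srxn1 (21.5 and 27.1), and Txnrd1 and Gpx4 have the highest levels.

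Some regulators around NRF2 and KEAP1 had larger fold changes than Nfe2l2 and Keap1. Of 18 listed genes, all tested, the authors' deposited table has 4 that rose, 1 that fell and 13 that missed the threshold, 27.8% called beside 24.7% of all tested genes. The median log2 fold change of this list was 0.088, beside -0.0011 over all tested genes. The rises of Maff, Sqstm1 and Bach2 (3) and 0 falls were still called with widened standard errors. Maff, a small MAF partner of NRF2, rose by 0.84 ± 0.076 (adjusted p 1.28e-26) in the authors' deposited table. Sqstm1, which encodes the autophagy receptor p62 that binds KEAP1, rose by 0.53 ± 0.062 (adjusted p 5.16e-16) in the authors' deposited table. Bach2, a repressor of the BACH family that also pairs with small MAF proteins, rose by 2.14 ± 0.24 from 0.400 CPM without doxycycline (adjusted p 4.55e-17) in the authors' deposited table.

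Other known NRF2 targets moved in both directions. Of 36 listed, 29 were tested, the authors' deposited table has 3 that rose, 7 that fell and 19 that missed the threshold, 34.5% called beside 24.7%, with a median log2 fold change of -0.015. Widened standard errors left 1 rise (Osgin1) and 1 fall (Slc7a11). Slc7a11, the cystine transporter that supplies cysteine for glutathione, fell by 0.99 on the log2 scale (± 0.076, adjusted p 1.25e-36) in the authors' deposited table. Osgin1, an oxidative stress-induced growth inhibitor, rose by 1.02 ± 0.12 (adjusted p 1.46e-16) and Aox1, an aldehyde oxidase, by 1.07 ± 0.18 (adjusted p 1.74e-07) in the authors' deposited table. Osgin1 and Aox1 were low, at 3.17 and 0.844 CPM without doxycycline.

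The lists of glutathione and of thioredoxin enzymes had 20% and 14.3% of their tested genes called, beside 24.7% of all tested genes. These differences were not tested. Of 42 glutathione genes, 30 were tested, the authors' deposited table has 4 that rose, 2 that fell and 24 that missed the threshold, 20% called beside 24.7%, with a median of 0.0070. Gss, the second enzyme of glutathione synthesis, rose by 0.48 ± 0.084 (adjusted p 2.63e-07) in the authors' deposited table. Gsto1, an omega class transferase (-0.23 ± 0.064, adjusted p 0.00418), and Chac1, which breaks glutathione down (-0.31 ± 0.094, adjusted p 0.00785), fell in the authors' deposited table. Of 21 thioredoxin and peroxiredoxin genes, all tested, the authors' deposited table has 1 that rose, 2 that fell and 18 that missed the threshold, 14.3% called beside 24.7%, with a median of 0.055. Widening left 0 calls in the glutathione list and 1 rise (Txnip) and 0 falls in the thioredoxin list, beside 4.66% of all tested genes called. Txnip, which encodes a thioredoxin-binding protein, rose by 0.73 ± 0.084 (adjusted p 1.46e-16) in the authors' deposited table. Txnrd3, a paralogue of Txnrd1 known from testis (-0.51 ± 0.086, adjusted p 5.85e-08), and Prdx6 (-0.22 ± 0.066, adjusted p 0.00931), which encodes a peroxiredoxin, fell in the authors' deposited table.

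Haem and iron genes and the makers of selenoproteins had 18.8% and 22.2% of their tested genes called, beside 24.7% of all tested genes. These differences were not tested either. Of 16 iron and haem genes, all tested, the authors' deposited table has 2 that rose, 1 that fell and 13 that missed the threshold, 18.8% called beside 24.7%, with a median of -0.034. Alas1, the first enzyme of haem synthesis, rose by 0.86 ± 0.083 (adjusted p 3.97e-23) and Blvrb, a biliverdin reductase, by 0.27 ± 0.070 (adjusted p 0.00168) in the authors' deposited table. Tfrc, the transferrin receptor gene, fell (-0.28 ± 0.065, adjusted p 2.43e-04) in the authors' deposited table. Of 9 genes of selenoprotein synthesis, all tested, the authors' deposited table has 1 that rose, 1 that fell and 7 that missed the threshold, 22.2% called beside 24.7%, with a median of -0.0050. Only the rise of Alas1 was still called in these 2 lists with widened standard errors. Secisbp2l rose (0.43 ± 0.068, adjusted p 9.53e-09), Sephs2, a selenophosphate synthetase gene, fell (-0.28 ± 0.070, adjusted p 9.96e-04), and Scly stood at 0.32 ± 0.16 (adjusted p 0.223) by the authors' deposited table.

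**Figure D4:**
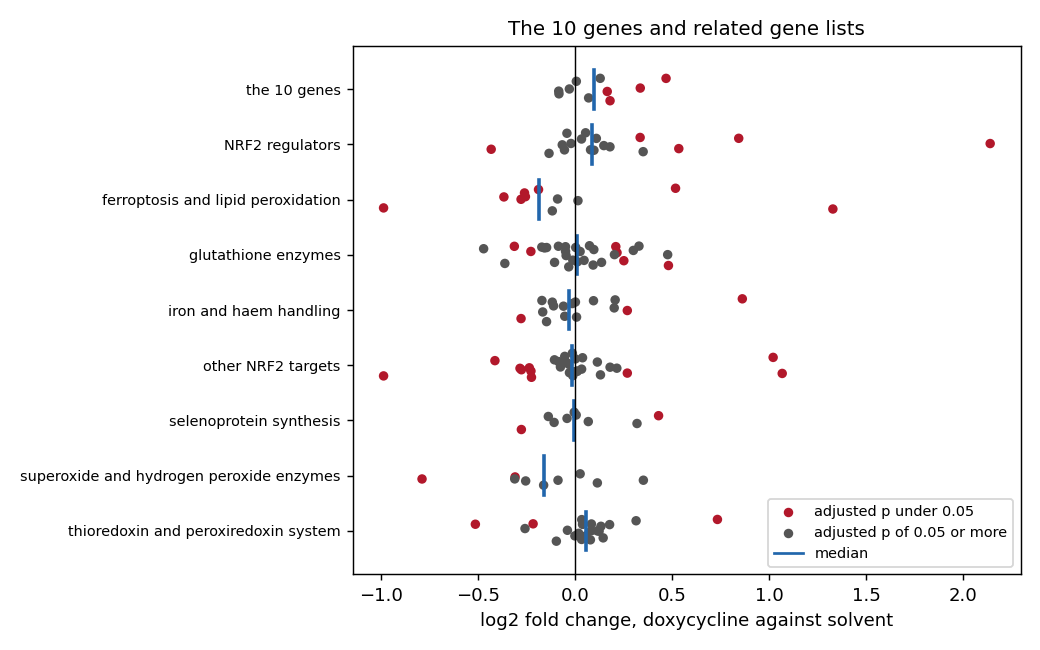
Log2 fold change, doxycycline against solvent, of each tested gene of the 10 genes and of 8 related lists (1 point per gene, spread vertically for legibility, red for an adjusted p under 0.05, blue bar for the median; authors' deposited table). Bach2 lies farthest right (2.14) and Slc7a11 farthest left (-0.99, on 2 lists), while the 10 genes lie between -0.085 and 0.47.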

How the data were processed

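Nuclear RNA of 500000 cells per sample was made into directional libraries, per the labels' protocols, which give the dose per millilitre in one place and the same figure per microlitre in another. Build mm10 and the tools edgeR, limma, HOMER 4.10, Picard, SAMtools 1.10 and STAR 2.7.1a appear in the submitters' processing notes, which give no roles. Per the file headers, the authors' deposited table has limma's columns, which are a log2 fold change, a mean log2 CPM, a moderated t score, a p-value and an adjusted p-value for the 2 groups; its log-odds score was not used. Other columns of the authors' deposited table, used here, are start, end and exon length in bases. The sources used here do not state how strand was treated in counting.

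The table holds no counts per library, so the authors' test was used and no count model was run. Each p-value matches its t at 44446 degrees of freedom. Over 40739 rows this is fewer than the 2 per row that a model of the 2 groups alone would leave. It is also more than the 1 per row that a model with 1 further term would leave. The authors' model may have held a further term or covered another number of rows, and the sources used here state neither. Among 19541 rows with mean log2 CPM from 2 up, 99.2% of the variance in log standard error came from level and fold, as with a pooled spread. Rows without reads lie at the value of a prior of 0.5 counts, which implies about 45700000 effective counts per library as a geometric mean. Standard errors are the log2 fold change divided by t. Group levels are the mean log2 CPM plus and minus the fold change divided by 2, which assumes a balanced design. Each gene is represented by its row with the highest mean, and 12355 genes whose mean reached 10 counts per library were tested at an adjusted p under 0.05. Intervals are at 95% and assume normal errors. The members and the 8 lists were chosen with earlier results of these data known. Of each list, up to 3 tested genes with the smallest p are named. The calculation was run on simulated data whose noise was drawn from these same standard errors. That run checks the arithmetic and cannot show whether the errors match the spread of replicates. Python 3.11.15, numpy 2.4.6, pandas 2.3.3, scipy 1.17.1 and matplotlib 3.10.9 were used.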

Additional observations from a re-analysis of the deposited data

How the results depend on the processing

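No paired analysis was possible because the result comes from the authors' table, which has no value per library; leaving out single libraries and the count models were not run for the same reason. A floor of 50 counts, no floor and adjusting p over the tested genes left the 4 rises and 0 falls among the 10 genes. With the longest transcript per gene, 2 rose (Hmox1 and Srxn1). Setting the median of 79 ribosomal protein genes (-0.044) to 0, with p adjusted over tested genes, also called Keap1 higher (0.17, adjusted p 0.0468), while Nfe2l2, Nqo1, Gclc, Gclm and Gsr stayed uncalled and Nfe2l2 turned from -0.030 to 0.014. Over all genes it gave 2149 higher and 1444 lower, or 59.8% of calls higher against 45.7%, with 7 rises among glutathione enzymes and 4 in the thioredoxin list. That list had 3 rises with p adjusted over tested genes alone, and the ferroptosis list 1 rise at 50 counts. With standard errors widened, 190 genes were higher and 386 lower, and 0 of the 10 genes were called. Rises and falls were then 0 and 1 in the ferroptosis list, 0 and 0 for glutathione enzymes, 1 and 0 for iron and haem, 1 and 1 for other NRF2 targets, 0 and 0 for selenoprotein synthesis, 3 and 0 for NRF2 regulators, 0 and 0 for superoxide enzymes, and 1 and 0 in the thioredoxin list. Both adjustments that combine a change with a new p adjustment were chosen after seeing the data. Genes with few reads, such as Aox1 and Bach2, have wider standard errors (0.18 and 0.24) than the 10 genes (at most 0.083).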

Other observations

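Enzymes that make or remove superoxide and hydrogen peroxide had 0 rises and 2 falls among 9 tested of 12 listed, with a median log2 fold change of -0.16, in the authors' deposited table. That is 22.2% called beside 24.7% of all tested genes, and with widened standard errors 0 were called. Duox1, a peroxide-forming oxidase (-0.79 ± 0.17, adjusted p 3.83e-05), and Xdh, xanthine dehydrogenase (-0.31 ± 0.083, adjusted p 0.00216), fell in the authors' deposited table. Sod3, the extracellular superoxide dismutase gene, had a value of -0.31 ± 0.13 (adjusted p 0.0864) by the authors' deposited table.

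Genes of ferroptosis and lipid peroxidation had 2 rises and 6 falls among 11 tested of 14 listed in the authors' deposited table, 72.7% called beside 24.7% of all tested genes, with a median log2 fold change of -0.19. With widened standard errors 0 rises and 1 fall were called, beside 4.66% of all tested genes, and 1 of the rises was left at a floor of 50 counts. Slc7a11 and Tfrc, described above, were among the 6 that fell in the authors' deposited table. Mboat1, a lysophospholipid acyltransferase gene, rose by 0.52 ± 0.084 (adjusted p 2.15e-08) in the authors' deposited table. Gpx4, which acts against the same lipid peroxides, had the small rise of 13.3% given above. The list is short, was chosen with earlier results known, and includes the cystine transporter that those results already showed. It was not split by whether a gene promotes or opposes ferroptosis, so its median gives no direction for that process.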
